A study of Homo sapiens with 24 samples.

Results

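The genes described here are *EPAS1*, *TTC9*, *MYH15*, *SH3PXD2A* and *SPTSSB*, which changed upon loss of *CTNNB1* in HT29, HCT116 and SW480 cells, but not in the same direction in every line. They were chosen from the KO against WT comparison itself: a gene counted as called where its adjusted p (limma, Benjamini-Hochberg) was under 0.05 and its absolute log2 fold change was over 1. Of 58051 gene identifiers listed, 13028 were tested in all 3 lines, and 26 of these were called in all 3. The change went the same way everywhere for 21 of the 26, and the remaining 5 are the genes described here, which is 0.0384% of the genes tested in all 3 lines. Because this contrast selected them, their KO against WT differences are given below as values without a test. HT29, HCT116 and SW480 are established colorectal cancer cell lines, and the WT groups were cell clones that had gone through the same CRISPR/Cas9 and cloning steps but kept the sequence of the *CTNNB1* locus. In the KO clones, CRISPR/Cas9 had removed exon 7 from both alleles, so that the reading frame was broken. Each line contributed 2 WT and 2 KO clones, and every clone had a library A and a library B, giving 4 libraries per line and genotype and 24 in all. The labels give only these letters. The paper describes 2 independent rounds of RNA-seq as biological replicates, and A and B are taken here as these rounds. The labels name no treatment beside the deletion, and all cells grew in the same DMEM-based medium with fetal calf serum. Clones were grown from sorted single cells, and a group stands for 2 clones and not for the whole line. A library is named by clone and round, as in KO 28A.

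β-CATENIN, the product of *CTNNB1*, is the coactivator that carries WNT signals to the DNA-binding TCF/LEF factors, and it is constantly active in most colorectal cancers. *EPAS1* codes for HIF-2α, an oxygen-sensitive transcription factor that pairs with ARNT and, in the intestine, is known for its control of iron uptake genes. *TTC9* codes for a small tetratricopeptide repeat protein known to bind HSP90 and a tropomyosin. *MYH15* codes for a myosin II heavy chain of the sarcomeric type. *SH3PXD2A* codes for TKS5, a scaffold that is phosphorylated by SRC and organizes podosomes and invadopodia, the actin-rich protrusions with which cells degrade matrix. *SPTSSB* codes for a small subunit of serine palmitoyltransferase, the enzyme of the first step of sphingolipid synthesis.

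The libraries held 22297049 to 29068378 reads counted on genes, and levels are given as normalized counts, that is, reads divided by the size factor of the library. The mean of *CTNNB1* itself fell from 6021 ± 99.3 (SD, n = 4) to 299.8 ± 34.1 in HT29, from 11918 ± 1000 to 218 ± 28.9 in HCT116 and from 46967 ± 4376 to 1024 ± 229 in SW480. *AXIN2*, a feedback inhibitor and classical WNT target gene, had KO minus WT differences of −3.70 ± 0.70 (SE, log2 scale) in HT29, −5.25 ± 0.31 in HCT116 and −4.74 ± 0.15 in SW480. In HT29 it was 15.1 and 22.5 in KO 28 but 158 and 119 in KO 38. Of 11 markers of colonic epithelium, 5 to 10 had a median of at least 10 in a group, and *CDX1* was below 10 in all 6 groups. *CDH17*, *LGALS4* and *GPA33* were below 10 in every group of HCT116 and SW480. Of 7 markers each, 0 to 3 of the fibroblast, endothelium, immune cell and skeletal muscle lists had such a median in a group. *PECAM1* of the endothelium list had no value. The defining markers *PTPRC* (leukocytes), *CDH5* (endothelium), *DCN* (fibroblasts) and *MYOD1* (muscle) were below 10 in every group, but several other members were not. Among these, *LYZ* averaged 24677 in WT and 21624 in KO of HT29, *LUM* 607 in KO of HT29 and *COL1A1* 346 in WT and 333 in KO of HCT116. In SW480 *VWF* went from 20.2 to 161, *CD14* from 37.4 to 172 and *MB* from 0.23 to 43.4. Further examples, as WT and KO means, were *CD14* in HT29 (160 and 139) and, in SW480, *COL1A1* (172 and 132), *PDGFRB* (140 and 100) and *DES* (75.3 and 78.2). Their part in the results was not tested. KO 47A of HCT116 stood apart with reads on 35449 genes against 20256 to 24944 in the other libraries, and the rounds of KO 38 in HT29 differed more than those of any other clone. Values without KO 47A and without either library of KO 38 are therefore given for each gene.

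The 5 genes fell into 3 patterns of direction, and HT29 was the line in which all 5 were higher in KO. *EPAS1* and *TTC9* were higher in HT29 and HCT116 KO cells and lower in SW480 KO cells. *MYH15* and *SH3PXD2A* were higher in HT29 and SW480 KO cells and lower in HCT116 KO cells. *SPTSSB* was higher in HT29 KO cells and lower in the KO cells of both other lines. In all 15 combinations of gene and line the 4 KO libraries lay outside the range of the 4 WT libraries, each KO clone differed from each WT clone in the same direction, and both rounds had the same sign. Among all genes tested, such separation was found for 13% (HT29), 20.5% (HCT116) and 46.2% (SW480), and the genes called were 2.3%, 5.06% and 17.5% of those tested. These shares are background only, since the rule fixed the members' differences. A higher level in KO was the usual direction of HT29 calls, with 283 genes higher and 60 lower. That all 5 members were higher there hence does not set them apart from other called genes. The HCT116 calls split into 488 higher and 291 lower, and for SW480 the split was 1748 to 1104. Since bulk RNA was measured, a change in the share of cells that express a gene and a change of its RNA per cell cannot be told apart.

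**Figure D1:**
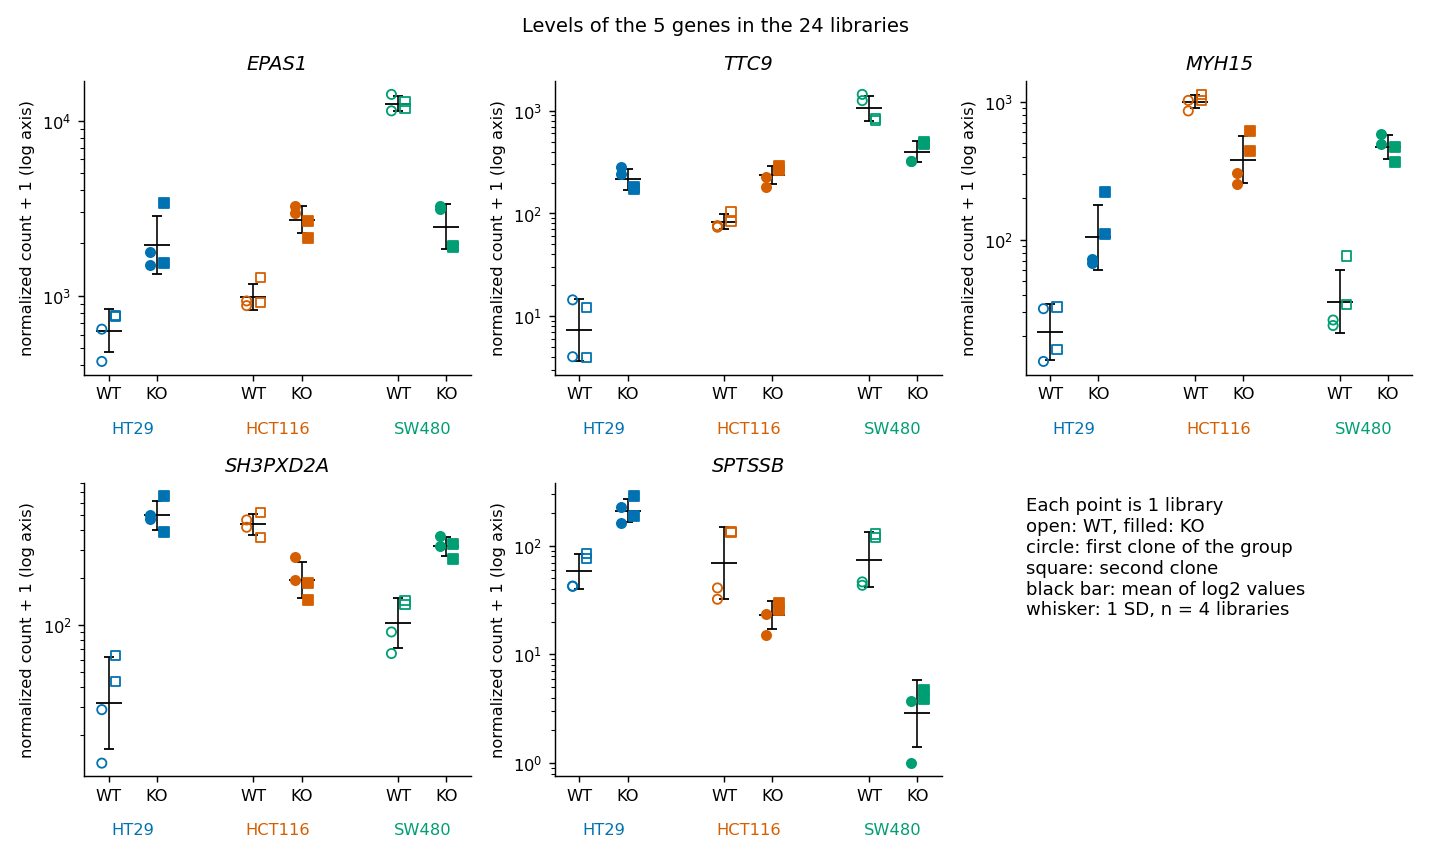
Normalized count plus 1 of each gene in every library on a log axis, for WT (open) and KO (filled) clones of the 3 lines, with circles and squares for the first and second clone of a group and bars for the mean and SD of log2 values (n = 4). The filled points lie above the open ones for all 5 genes in HT29, but for 2 of 5 genes in HCT116 and 2 of 5 in SW480.

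*EPAS1* stood out for its level in SW480 WT cells, which was the highest that any of the 5 genes reached in any group. In HT29, WT 11 had 643 and 421 normalized counts in rounds A and B and WT 40 had 767 and 760.4, while KO 28 had 1506 and 1785 and KO 38 had 3399 and 1543. The KO libraries were higher throughout, and KO 38A was well above the other 3. In HCT116, WT 4 had 933 and 877 and WT 6 had 1269 and 914, and the levels were 2982 and 3247 in KO 44 and 2124 and 2670.1 in KO 47. In SW480, WT 4 had 14099 and 11350.4 and WT 5 had 11665 and 12789.6, against 3259 and 3139 in KO 17 and 1904 and 1926 in KO 21. Every SW480 WT library was thus far above all other libraries of the series, and the KO libraries of SW480 were within the range of the KO libraries of HT29. The KO minus WT difference was 1.62 ± 0.31 (SE, log2 scale) in HT29, 1.46 ± 0.16 in HCT116 but −2.33 ± 0.18 in SW480. It ranged over the 4 clone pairs from 1.10 to 2.14, from 1.14 to 1.78 and from −2.72 to −1.93, and it was 1.35 in HT29 without KO 38A, 1.73 without KO 38B and 1.58 in HCT116 without KO 47A.

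*TTC9* followed the same directions from a much lower level, and the HT29 WT clones hardly expressed it. WT 11 of HT29 had 13.4 and 3.04 normalized counts and WT 40 had 2.96 and 11.3, and 2 of these 4 libraries held 3 reads. KO 28 had 281 and 244, and KO 38 had 178 and 174. Over the group, 850 reads in KO stood against 29 in WT, a ratio of 29.3 after scaling by size factors (95% interval 20.2 to 44.0, counting error only). In HCT116, WT 4 had 72.5 and 75.2 and WT 6 had 103 and 81.9, whereas KO 44 had 226 and 179.9 and KO 47 had 267 and 287. In SW480, the WT levels were the highest of the series, with 1251 and 1439 in WT 4 and 808 and 842 in WT 5. They were 325 and 322 in KO 17 and 472 and 499 in KO 21. The KO minus WT difference was 4.88 ± 0.49 (SE, log2 scale) in HT29, 1.51 ± 0.20 in HCT116 but −1.41 ± 0.22 in SW480, with ranges over the clone pairs from 4.53 to 5.23, from 1.12 to 1.89 and from −2.05 to −0.76. It was 4.97 in HT29 without KO 38A, 4.99 without KO 38B and 1.45 in HCT116 without KO 47A.

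The start regions of *EPAS1* and *TTC9* are shown because these genes shared their directions. RefSeq (GRCh38.p14) gives each of them 1 start, and a window holds 250 bases before and 50 after it on the strand of the gene. Searched on both strands, with matches in capitals, were the core of TCF/LEF sites, spelled CTTTGAA or, with its ending changed, CTTTGAT, and further CTTTGTA as well as the form CTTTGTT, and the core of hypoxia-response elements, spelled ACGTG or else GCGTG.
EPAS1, chr2:46297157-46297456, plus strand: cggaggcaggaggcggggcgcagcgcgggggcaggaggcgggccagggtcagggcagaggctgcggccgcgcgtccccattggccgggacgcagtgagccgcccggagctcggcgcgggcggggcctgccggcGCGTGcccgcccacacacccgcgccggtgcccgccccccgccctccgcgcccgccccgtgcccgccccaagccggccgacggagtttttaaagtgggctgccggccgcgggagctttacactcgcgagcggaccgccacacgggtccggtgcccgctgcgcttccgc
TTC9, chr14:70641666-70641965, plus strand: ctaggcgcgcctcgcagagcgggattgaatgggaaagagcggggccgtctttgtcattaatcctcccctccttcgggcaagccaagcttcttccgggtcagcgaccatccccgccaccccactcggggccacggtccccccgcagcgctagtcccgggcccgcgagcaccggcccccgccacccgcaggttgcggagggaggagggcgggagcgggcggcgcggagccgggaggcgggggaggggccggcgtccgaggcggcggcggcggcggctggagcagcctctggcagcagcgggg
Both windows were rich in G and C, at 80% for *EPAS1* and 75.3% for *TTC9*, against a median of 58.7% over the 35116 windows of the table. They held 47 and 37 CpG dinucleotides, where the median was 14. Neither had a TCF/LEF core, which 13.8% of all windows had. The capitals in the *EPAS1* window mark its only hypoxia-response core, and 48.4% of all windows had at least 1.

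*MYH15* was high in HCT116 WT cells and low in the WT cells of both other lines. HCT116 WT 4 had 858 and 1023 normalized counts and WT 6 had 1016 and 1131, while KO 44 had 304 and 253 and KO 47 had 442 and 614. The KO libraries were all lower, and those of KO 44 were the lowest. In HT29, WT 11 had 30.7 and 12.2 and WT 40 had 31.6 and 15.0, against 67.4 and 71.4 in KO 28 and 220.1 and 109 in KO 38. In SW480, WT 4 had 25.3 and 23.0 and WT 5 had 32.8 and 75.4, and the levels were 491 and 584 in KO 17 and 364 and 468 in KO 21. SW480 KO cells hence reached the level of HCT116 KO cells, but HT29 KO cells did not. The KO minus WT difference was 2.28 ± 0.47 (SE, log2 scale) in HT29, −1.40 ± 0.24 in HCT116 and 3.72 ± 0.33 in SW480, and over the clone pairs it ranged from 1.62 to 2.93, from −1.95 to −0.85 and from 3.02 to 4.42. It was 1.92 in HT29 without KO 38A and 2.25 without KO 38B, neither of which passed the thresholds of the rule, and −1.47 in HCT116 without KO 47A.

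*SH3PXD2A* had the same directions as *MYH15*. In HT29, WT 11 had 27.8 and 12.2 normalized counts and WT 40 had 42.5 and 62.6, whereas KO 28 had 474 and 499 and KO 38 had 660.2 and 392. In HCT116, WT 4 had 465 and 418 and WT 6 had 517 and 358, against 271 and 191 in KO 44 and 184 and 144 in KO 47. In SW480, WT 4 had 64.7 and 89.1 and WT 5 had 142 and 133, and the levels were 365 and 319 in KO 17 and 261 and 326 in KO 21. The highest mean among the WT groups was that of HCT116, which had the lowest mean among the KO groups. The KO minus WT difference was 3.96 ± 0.45 (SE, log2 scale) in HT29, −1.17 ± 0.20 in HCT116 and 1.62 ± 0.24 in SW480. Its ranges over the clone pairs were 3.21 to 4.71, −1.43 to −0.92 and 1.08 to 2.15, and it was 3.82 in HT29 without KO 38A, 4.07 without KO 38B and −1.15 in HCT116 without KO 47A.

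The start regions of *MYH15* and of an inner start of *SH3PXD2A* are shown because both genes shared their directions and because the latter held the only TCF/LEF core found. RefSeq gives *MYH15* 1 start and *SH3PXD2A* 5 starts, and the counts per gene do not tell which of them was used.
MYH15, chr3:108510547-108510846, minus strand: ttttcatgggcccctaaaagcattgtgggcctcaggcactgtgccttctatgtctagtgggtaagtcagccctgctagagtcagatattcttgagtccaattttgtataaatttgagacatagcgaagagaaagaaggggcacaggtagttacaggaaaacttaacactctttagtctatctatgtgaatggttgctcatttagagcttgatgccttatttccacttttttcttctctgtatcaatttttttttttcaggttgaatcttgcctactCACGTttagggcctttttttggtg
SH3PXD2A, the second of 5 starts, chr10:103693429-103693728, minus strand: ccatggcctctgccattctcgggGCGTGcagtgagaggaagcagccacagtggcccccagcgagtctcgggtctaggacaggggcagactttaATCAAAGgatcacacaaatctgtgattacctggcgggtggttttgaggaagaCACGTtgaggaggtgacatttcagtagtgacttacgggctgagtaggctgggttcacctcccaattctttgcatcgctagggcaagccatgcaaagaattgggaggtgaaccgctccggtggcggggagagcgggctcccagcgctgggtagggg
The *MYH15* window was poor in G and C, at 40%, and held 2 CpG dinucleotides, unlike those of *EPAS1* and *TTC9*. It had 1 hypoxia-response core and no TCF/LEF core. In the *SH3PXD2A* window the capitals mark 2 hypoxia-response cores and, between them, a TCF/LEF core read on the opposite strand. The other 4 windows of *SH3PXD2A* had no TCF/LEF core, which 13.8% of all windows of the table had. They held 0 hypoxia-response cores at the first start, 6 at the third, 1 at the fourth and 0 at the fifth. Their G and C content was 79.3% at the first start and 62.3% to 64.3% at the other 3.

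*SPTSSB* was the only gene of the 5 whose WT means were alike in all 3 lines and whose KO means were far apart, although its WT clones differed within lines. In HT29, WT 11 had 41.3 and 41.6 normalized counts and WT 40 had 75.1 and 83.9, against 225 and 160.5 in KO 28 and 187 and 285 in KO 38. In HCT116, WT 4 had 31.2 and 39.9 and WT 6 had 132 and 134, while KO 44 had 22.6 and 14.1 and KO 47 had 28.9 and 24.7. The gap between WT 4A and KO 47A was thus small, and the size of the difference depended on the WT clone. In SW480, WT 4 had 45.5 and 42.3 and WT 5 had 127 and 117, and KO 17 had 0 and 2.75 and KO 21 had 3.74 and 2.88. Of these KO libraries, 3 held 3 reads or fewer, so that *SPTSSB* was close to the limit of detection there. Over the group, 343 reads in WT stood against 10 in KO, a ratio of 35.4 after scaling by size factors (95% interval 19.0 to 74.4, counting error only). The KO minus WT difference was 1.85 ± 0.32 (SE, log2 scale) in HT29, −1.61 ± 0.47 in HCT116 and −4.69 ± 0.56 in SW480, where it depended on the pseudocount. Over the clone pairs it ranged from 1.25 to 2.45, from −2.83 to −0.39 and from −5.99 to −3.39. It was 1.90 in HT29 without KO 38A and 1.70 without KO 38B, and in HCT116 it was −1.74 without KO 47A and −0.66 without WT 6. Of these, 1.90, −1.74 and −0.66 did not pass the thresholds of the rule.

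The *SPTSSB* window is shown for comparison, since this gene had directions of its own.
SPTSSB, chr3:161371468-161371767, minus strand: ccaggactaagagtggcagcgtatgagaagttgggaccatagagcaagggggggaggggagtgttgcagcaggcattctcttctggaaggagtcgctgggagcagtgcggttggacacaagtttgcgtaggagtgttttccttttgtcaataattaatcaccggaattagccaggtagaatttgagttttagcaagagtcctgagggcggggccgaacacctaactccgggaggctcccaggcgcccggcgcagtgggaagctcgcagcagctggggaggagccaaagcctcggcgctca
It held neither motif, and its G and C content of 57% and its 14 CpG dinucleotides were near the medians of all windows.

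**Figure D2:**
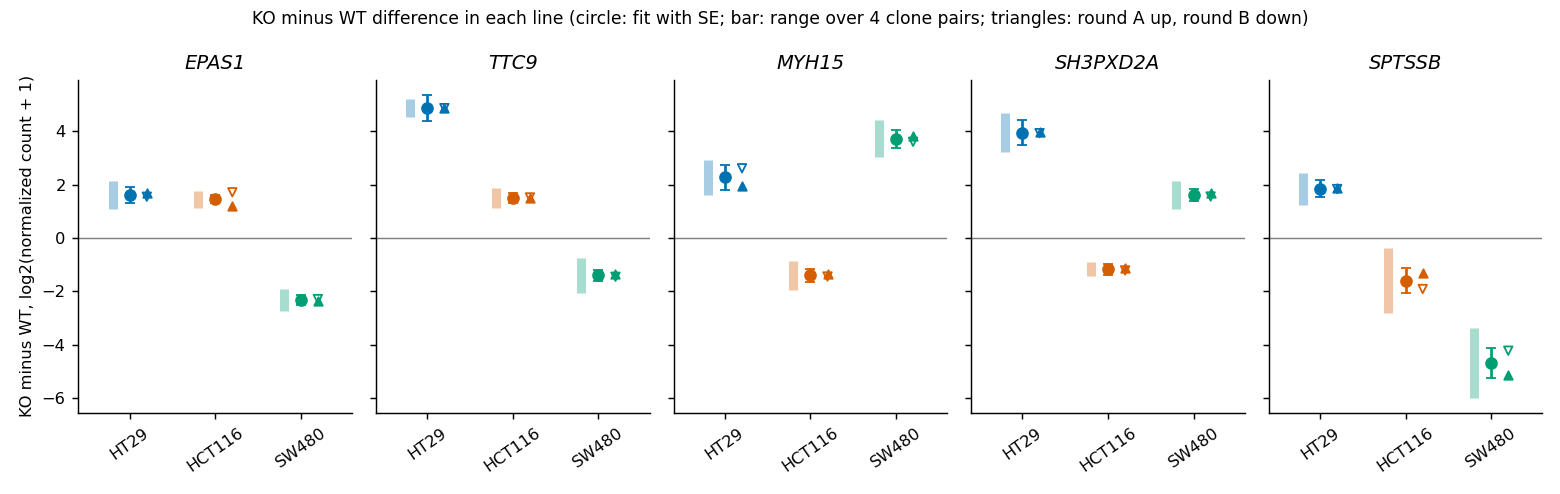
KO minus WT difference on the log2(normalized count + 1) scale per gene and line, with circles and whiskers for the fit and its SE, bars for the range over the 4 clone pairs and triangles for round A (up) and round B (down). The bars do not cross 0 in any panel, and the bar of *SPTSSB* in HCT116, from −2.83 to −0.39, comes nearest to it.

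The rule was met narrowly by some of the genes. The member with the highest adjusted p was *SPTSSB*, at 0.0446 in HCT116 (limma) and at 0.0587 there with the round as a replicate block, and the one with the smallest absolute log2 fold change was *SH3PXD2A*, at −1.17 in HCT116. Just outside on the fold threshold, *DENND5B* had adjusted p values up to 0.0411 (limma) but a difference of only −0.88 in HT29, beside −1.67 in HCT116 and 1.02 in SW480. Differences of mixed sign that exceeded 1 in every line were found for 39 genes, and mixed signs with an adjusted p under 0.05 in every line for 12. Leaving out 1 of the 8 libraries of a line at a time put *MYH15* in HT29 outside the rule in 8 of 8 cases (adjusted p 0.0662 to 0.12, limma), *EPAS1* in HT29 in 6 (0.0564 to 0.0834), *SPTSSB* in HT29 in 5 (0.0502 to 0.0732) and *SPTSSB* in HCT116 in 6 (0.0609 to 0.13). The other 11 combinations passed in every case. When the rounds of a clone were averaged so that the clone was the unit, 8 of the 15 combinations passed both thresholds, with 0 in HT29. With that unit no gene of 14921 was called in HT29, although 849 had an unadjusted p under 0.05, and edgeR and DESeq2 on single libraries called 295 and 784.

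When WT and KO levels were set side by side, *EPAS1*, *TTC9*, *MYH15* and *SH3PXD2A* were closer together between the lines in KO than in WT cells. For *EPAS1*, the highest and the lowest line mean were 4.30 apart in WT and 0.49 in KO (log2 scale), and for *TTC9* 7.17 and 0.88. The corresponding ranges were 5.54 and 2.17 for *MYH15* and 3.77 and 1.36 for *SH3PXD2A*. *SPTSSB* went the other way, from 0.35 in WT to 6.19 in KO. Its 2 WT clones within a line were further apart than 0.35, by 0.92 in HT29, 1.89 in HCT116 and 1.46 in SW480. As folds of the normalized count + 1, the ranges between lines correspond to 19.7 and 1.40 for *EPAS1*, 144 and 1.84 for *TTC9*, and 1.27 and 73.1 for *SPTSSB*. The 144 rests on HT29 WT cells with 29 reads of *TTC9* in all, and the 73.1 on SW480 KO cells with 10 reads of *SPTSSB*. Both are near the detection limit and depend on the pseudocount. Over the 13028 genes tested in all 3 lines, 47.4% had a narrower range in KO, and the median range was 1.01 in WT and 1.05 in KO. This comparison was chosen after the values were seen, it uses the same libraries as the rule, and it was not tested.

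**Figure D3:**
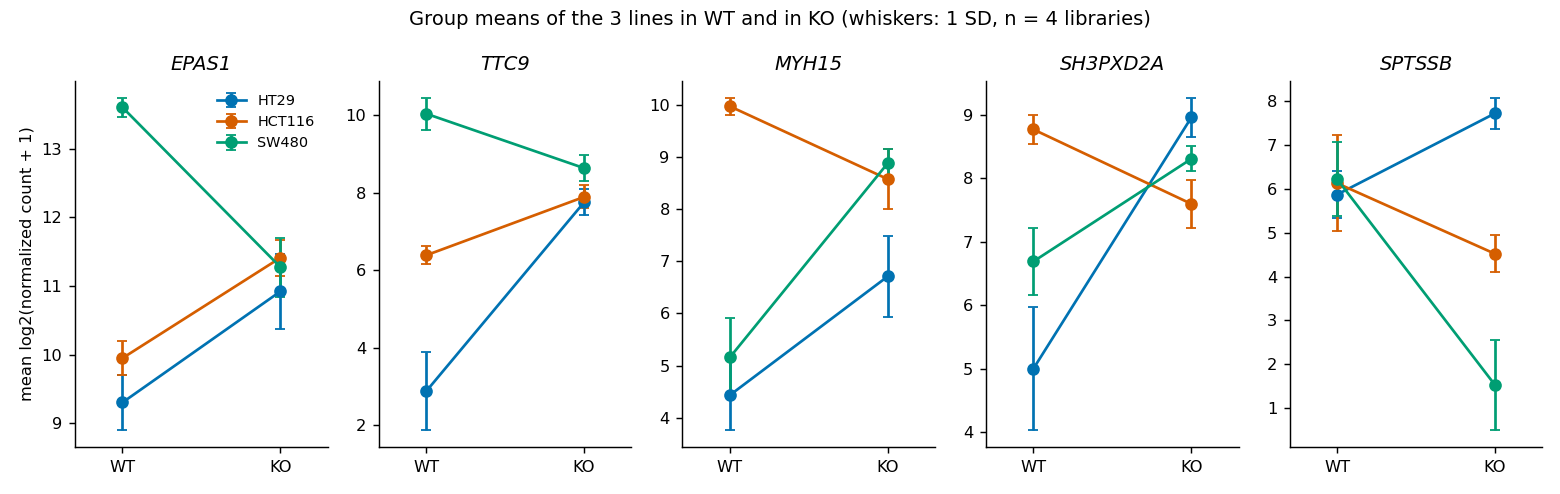
Mean log2(normalized count + 1) of each line in WT and KO cells, with whiskers for 1 SD (n = 4 libraries) and axes that do not start at 0. The 3 lines draw together from WT to KO for *EPAS1*, *TTC9*, *MYH15* and *SH3PXD2A*, with ranges of 4.30, 7.17, 5.54 and 3.77 in WT against 0.49, 0.88, 2.17 and 1.36 in KO, and they fan out for *SPTSSB*, from 0.35 to 6.19.

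The clones of a genotype can be compared with a test, because the contrast of 2 clones is independent of KO against WT, although a rule that asks for a small residual spread favours genes whose clones are alike. The error of these contrasts is the spread between rounds. Of 30 contrasts, 1 was called by limma: *SPTSSB* was higher in HCT116 WT 6 than in WT 4 by 1.89 ± 0.32 (SE, log2 scale; adjusted p = 0.0135, limma), at mean levels of 133 and 35.5. That contrast called 1.44% of all genes tested. For the other clone contrasts, the share of genes called was 7.58% (WT) and 12.5% (KO) in HT29, 3.28% (KO) in HCT116, and 1.97% (WT) and 4.61% (KO) in SW480. These shares are for both thresholds together and give no background for the adjusted p alone. In 6 contrasts the adjusted p was under 0.05, and in 5 of these the difference was below 1 on the log2 scale. Those 5 included *EPAS1*, which had a KO 21 minus KO 17 difference of −0.74 in SW480 (adjusted p = 2.1e-05, limma), and *MYH15*, which was higher in HCT116 KO 47 than in KO 44 by 0.91 (adjusted p = 0.0157, limma). *TTC9* differed between the SW480 clones of either genotype, with WT 5 minus WT 4 at −0.70 (adjusted p = 0.000211, limma) and KO 21 minus KO 17 at 0.58 (adjusted p = 0.000364, limma). *SH3PXD2A* was higher in SW480 WT 5 than in WT 4 by 0.85 (adjusted p = 0.00543, limma). Differences above 1 that missed the threshold were *SH3PXD2A* in HT29 WT 40 minus WT 11, at 1.43 ± 0.43 (adjusted p = 0.0874, limma), *MYH15* in HT29 KO 38 minus KO 28, at 1.15 ± 0.56 (adjusted p = 0.189, limma), *MYH15* in SW480 WT 5 minus WT 4, at 1.02 ± 0.31 (adjusted p = 0.0641, limma), and *SPTSSB* in SW480 WT 5 minus WT 4, at 1.46 ± 0.53 (adjusted p = 0.107, limma). *SPTSSB* in SW480 KO 21 minus KO 17 was 1.15 ± 0.53 (adjusted p = 0.119, limma), at levels near the detection limit. Some of these calls depended on the tool: *SPTSSB* in SW480 WT 5 minus WT 4 was called by edgeR (1.49), DESeq2 (1.49) and with a pseudocount of 5 (1.38), *SH3PXD2A* in HT29 WT 40 minus WT 11 by DESeq2 (1.39), and *MYH15* in SW480 WT 5 minus WT 4 with the round as a replicate block (1.02).

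The level of a line averaged over WT and KO is likewise independent of the KO against WT contrast, but only in its error. The average still holds the KO levels, and with them the differences that the rule selected. The adjusted p values and the count of calls below therefore describe these genes and are not independent of how they were chosen. Here too, the rule favours genes with a small residual spread. Of 15 such contrasts between lines, 12 were called, against a background of 38% of genes between HCT116 and HT29, 42.3% between SW480 and HT29 and 41.3% between SW480 and HCT116. *EPAS1* and *TTC9* ranked SW480 above HCT116 above HT29. For *EPAS1*, SW480 exceeded HCT116 by 1.76 ± 0.17 (SE, log2 scale; adjusted p = 3.4e-09, limma), and HCT116 exceeded HT29 by 0.57 ± 0.17 (adjusted p = 0.00529, limma), which is below the fold threshold. For *TTC9* the steps were 2.20 ± 0.24 (adjusted p = 2.7e-08, limma) and 1.83 ± 0.24 (adjusted p = 5.3e-07, limma). *MYH15* ranked HCT116 above SW480 above HT29, with 3.70 ± 0.28 between the extremes (adjusted p = 3.7e-11, limma) and 1.45 ± 0.28 between SW480 and HT29 (adjusted p = 6.3e-05, limma). *SPTSSB* ranked HT29 above HCT116 above SW480, with HCT116 minus HT29 at −1.47 ± 0.36 (adjusted p = 0.00104, limma) and SW480 minus HCT116 at −1.45 ± 0.36 (adjusted p = 0.00112, limma). That order was the order of the KO groups, with means of 214, 22.6 and 2.34 in HT29, HCT116 and SW480. It was not that of the WT groups, with means of 60.5, 84.4 and 83.2. *SH3PXD2A* was higher in HCT116 than in HT29 by 1.20 ± 0.24 (adjusted p = 0.000122, limma), while SW480 minus HT29 was 0.52 ± 0.24 (adjusted p = 0.0581, limma), although the mean normalized count was lower in SW480 (213) than in HT29 (271), and SW480 minus HCT116 was −0.68 ± 0.24 (adjusted p = 0.0144, limma). Without HT29 WT 11B the first of these 3 values was 0.99, just below the fold threshold. Only *TTC9* had its WT and its KO group means both in the order of these averages. As counted reads per kilobase of exon, scaled to equal library totals (RPKM), *EPAS1* reached 66.6 ± 5.41 (SD, n = 4) in SW480 WT cells, and the highest group means of the other genes were 8.27 ± 2.27 for *TTC9* in SW480 WT, 4.81 ± 0.44 for *MYH15* in HCT116 WT, 1.99 ± 0.35 for *SPTSSB* in HT29 KO and 1.50 ± 0.45 for *SH3PXD2A* in HT29 KO.

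On the GRCh37 annotation (GENCODE), *EPAS1* (ENSG00000116016) lies on chromosome 2 at 46520806 to 46613836, *TTC9* (ENSG00000133985) on chromosome 14 at 71108633 to 71142083, *MYH15* (ENSG00000144821) on chromosome 3 at 108099215 to 108248169, *SPTSSB* (ENSG00000196542) also on chromosome 3 at 161062586 to 161090668, and *SH3PXD2A* (ENSG00000107957) on chromosome 10 at 105353784 to 105615342. Genes that overlap these spans or lie within 100 kb of them were not used by the rule. Of those tested, 2 of 11 were called in HT29 (18.2%, beside 2.3% of all genes), 1 of 10 in HCT116 (10%, beside 5.06%) and 3 of 10 in SW480 (30%, beside 17.5%). All but 1 of these calls lay around *SH3PXD2A*. *SH3PXD2A-AS1*, a long noncoding RNA on the opposite strand inside *SH3PXD2A*, rose in all 3 lines, also in HCT116, where the level of *SH3PXD2A* was lower in KO. Its means were 0.873 ± 1.18 (SD, n = 4) in WT and 70.8 ± 34.4 in KO of HT29, 12.3 ± 6.11 and 71.5 ± 51.7 in those of HCT116, and 168 ± 23.1 and 1164 ± 157 in those of SW480. KO minus WT was 5.31 ± 0.58 (adjusted p = 0.00237, limma), 2.34 ± 0.51 (adjusted p = 0.0119, limma) and 2.78 ± 0.13 (adjusted p = 7.3e-08, limma). The HT29 WT clones held 3 reads of it in all, so that its ratio there, 93.6, has an interval from 31.7 to 457 (95%, counting error only). In HCT116 its call was lost without clone KO 44 (1.58, adjusted p = 0.0975, limma) and without clone WT 6 (2.15, adjusted p = 0.0632, limma), and with clones as the unit its adjusted p was 0.363 in HT29 and 0.0629 in HCT116 (limma). Its exons overlapped those of *SH3PXD2A* by 0 bases, but the library kit does not keep the strand, so that reads from unspliced RNA of either gene cannot be told apart there.

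In SW480, *STN1*, which codes for a telomere-associated protein and lies 1222 bases from *SH3PXD2A*, rose from 299 ± 15.6 (SD, n = 4) to 849 ± 132, by 1.49 ± 0.11 on the log2 scale (adjusted p = 2.6e-06, limma). *NEURL1*, 1481 bases away on the other side, rose there from 17.2 ± 5.91 to 65.6 ± 19.1, by 1.88 ± 0.30 (adjusted p = 0.000511, limma). *STN1* was not called in the other lines, where it differed by 0.62 ± 0.19 in HT29 (adjusted p = 0.146, limma) and −0.48 ± 0.21 in HCT116 (adjusted p = 0.153, limma), and *NEURL1* differed by 0.35 ± 0.34 in HCT116 (adjusted p = 0.544, limma) and was too low to test in HT29. Near *TTC9*, the long noncoding RNA *LINC01269* rose in HT29 from 0.49 ± 0.57 to 17.8 ± 3.73, by 3.72 ± 0.46 (adjusted p = 0.00424, limma), but not with clones as the unit (adjusted p = 0.504, limma). *MED6* and *MAP3K9*, the protein-coding neighbours of *TTC9*, had adjusted p values from 0.157 to 0.872 (limma) over the 3 lines. Near *MYH15*, *HHLA2* had a mean of 28.0 ± 31.2 in WT and 803 ± 702 in KO of HT29 (5.31 ± 1.19, adjusted p = 0.0562, limma), and *CIP2A*, *DZIP3* and the pseudogene *RPL13P8* were called in no line. The neighbours of *SPTSSB* that were tested, *NMD3* and the pseudogene *RPL23AP42*, were called in no line either, and no neighbour of *EPAS1* reached the level for testing.

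Genes that work together with the 5 were taken as fixed lists of 122 genes in all. Of these, 2 of 97 tested were called in HT29 (2.06%, background 2.3%), 4 of 99 tested in HCT116 (4.04%, background 5.06%) and 22 of 103 tested in SW480 (21.4%, background 17.5%). The shares were close to those of all genes tested. At an unadjusted p under 0.05, limma found 2417 of 14921 genes in HT29, 4553 of 15404 in HCT116 and 8905 of 16325 in SW480. These numbers are the background for the unadjusted counts given below. Among 16 partners and regulators of HIF factors, *CITED2*, a competitor of HIF for its coactivators, rose in HT29 from 85.7 ± 8.62 (SD, n = 4) to 241 ± 56.9, by 1.46 ± 0.23 (adjusted p = 0.0151, limma). This call was lost without KO 28A (adjusted p = 0.0579, limma), without WT 11A (adjusted p = 0.0553, limma) and without WT 40B (adjusted p = 0.0527, limma). *ARNT2*, an alternative partner of HIF-2α, fell in SW480 from 327 ± 22.4 to 56.0 ± 8.34, a difference of −2.54 ± 0.14 (adjusted p = 2.8e-07, limma), and 0 genes of the list were called in HCT116, where 2 had an unadjusted p under 0.05 (limma) and edgeR and DESeq2 also called 0. *HIF1A*, which codes for the closest relative of HIF-2α, was called in no line, with differences of −0.72 ± 0.28 in HT29, −0.13 ± 0.12 in HCT116 and 0.41 ± 0.07 in SW480 (adjusted p = 0.241, 0.512 and 0.000884, limma).

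Of 23 HIF target genes tested in each line, 0 were called in HT29 (limma), 1 rose and 2 fell in HCT116, and 8 rose and 1 fell in SW480, where *EPAS1* was lower in KO. These are 0%, 13% and 39.1% of the list, beside 2.3%, 5.06% and 17.5% of all genes tested. The medians of the list were 0.24, 0.18 and 0.31, beside 0.03, −0.01 and −0.0042 over all genes tested. In SW480, *ANGPTL4*, a secreted regulator of lipoprotein lipase, rose from 81.4 ± 64.4 to 2765 ± 469, by 5.31 ± 0.39 (adjusted p = 4.7e-06, limma), and *CA12*, a carbonic anhydrase, rose from 16.8 ± 4.66 to 188 ± 50.5, by 3.42 ± 0.27 (adjusted p = 2.8e-06, limma). In HCT116, where *EPAS1* was higher in KO, the glucose transporter gene *SLC2A1* fell from 8899 ± 1999 to 2676 ± 515, a difference of −1.72 ± 0.18 (adjusted p = 0.000111, limma), and the stress gene *DDIT4* rose from 512 ± 169 to 4140.2 ± 2752, by 2.79 ± 0.52 (adjusted p = 0.0121, limma). The other gene that fell in HCT116 was *SLC40A1*, the iron exporter ferroportin, from 34.0 ± 7.28 to 1.34 ± 2.68, and in SW480 it was *ANKRD37* that fell, from 91.2 to 41.8. Both were picked out after their values were seen. The *DDIT4* call was lost without clone WT 4 (adjusted p = 0.0568, limma), without clone WT 6 (adjusted p = 0.0755, limma) and with clones as the unit (adjusted p = 0.301, limma). In HT29, 2 of the 23 had an unadjusted p under 0.05 in limma, edgeR called 1 and DESeq2 called 2.

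Of the sphingolipid synthesis genes around *SPTSSB*, 0 of 21 were called in HT29, 0 of 21 in HCT116, and 3 of 22 fell in SW480. These are 0%, 0% and 13.6% of the list, beside 2.3%, 5.06% and 17.5% of all genes tested. The 3 in SW480 included *SGPL1*, the sphingosine-1-phosphate lyase, from 3498 ± 263 to 1230.5 ± 94.0, a difference of −1.51 ± 0.08 (adjusted p = 1.8e-07, limma), and *UGCG*, the glucosylceramide synthase, from 10205 ± 1584 to 4874 ± 221, a difference of −1.05 ± 0.10 (adjusted p = 1.6e-05, limma), which was −0.97 without WT 5B. The other, named after its value was seen, was *CERS1*, a ceramide synthase, with means of 53.6 and 9.70. At an unadjusted p under 0.05 limma found 7 in HT29 and 9 in HCT116, while edgeR called 0 in both lines and DESeq2 called 1 and 0. *SPTSSA*, the paralog of *SPTSSB* in the same enzyme, had means of 859.6 to 1611 in every group and differences of 0.31 ± 0.19 in HT29, −0.38 ± 0.12 in HCT116 and 0.02 ± 0.09 in SW480 (adjusted p = 0.457, 0.0501 and 0.853, limma). *SPTLC3*, a catalytic subunit, averaged 7.55 ± 5.59 and 30.5 ± 23.2 in WT and KO of HT29 (adjusted p = 0.278, limma) and 220.0 ± 124 and 174 ± 10.0 in SW480 (adjusted p = 0.696, limma), and it was too low to test in HCT116.

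Among podosome and invadopodium genes, which TKS5 brings together, 1 of 19 tested fell in HT29, 1 of 19 fell in HCT116, and 4 of 22 rose and 2 fell in SW480. These are 5.26%, 5.26% and 27.3% of the list, beside 2.3%, 5.06% and 17.5% of all genes tested. The gene that fell in HT29 and HCT116 was *ADAM19*, a membrane metalloprotease, from 3612 ± 998 (SD, n = 4) to 698 ± 294 in HT29, a difference of −2.41 ± 0.30 (adjusted p = 0.00432, limma), and from 1857 ± 1392 to 134 ± 84.1 in HCT116, a difference of −3.61 ± 0.71 (adjusted p = 0.0156, limma). Its call was lost in HT29 without clone WT 40 (adjusted p = 0.0512, limma) and in HCT116 without clone KO 47 (adjusted p = 0.0977, limma), and in both lines with clones as the unit (adjusted p = 0.336 and 0.335, limma). It also fell in SW480, from 6361 ± 398 to 1146 ± 116, a difference of −2.47 ± 0.08 (adjusted p = 8.6e-09, limma). In SW480 the gelatinase gene *MMP9* rose from 9.35 ± 3.34 to 354 ± 275, by 4.78 ± 0.54 (adjusted p = 5.5e-05, limma), and *FSCN1*, which codes for an actin bundling protein, rose from 890.3 ± 185 to 6972 ± 758, by 2.99 ± 0.15 (adjusted p = 1.7e-07, limma). *SH3PXD2B*, the paralog of *SH3PXD2A*, was called in no line, with differences of −1.46 ± 0.73 in HT29, −0.52 ± 0.13 in HCT116 and −0.17 ± 0.12 in SW480 (adjusted p = 0.36, 0.0221 and 0.257, limma).

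Of the other myosin II heavy and light chain genes, 11 were tested in HT29 and in HCT116 with 0 called, and of 12 tested in SW480, 1 rose and 2 fell. The shares called were 0%, 0% and 25%, beside 2.3%, 5.06% and 17.5% of all genes tested. The heavy chain gene *MYH7B* fell in SW480 from 6815 ± 2181 to 24.5 ± 11.1, a difference of −8.10 ± 0.30 (adjusted p = 4.1e-08, limma), in the same cells in which *MYH15* was higher in KO. The other gene that fell, named after its value was seen, was *MYL2*, a light chain of cardiac muscle, with means of 18.2 and 3.75. *MYLK*, the myosin light chain kinase, rose there from 318 ± 99.7 to 2449 ± 549, by 2.97 ± 0.23 (adjusted p = 4.5e-06, limma). Unadjusted p values under 0.05 were found for 2 of the genes in HT29 and 4 in HCT116 (limma), edgeR called 0 in both lines, and DESeq2 called 1 and 0. The nonmuscle heavy chains *MYH9*, *MYH10* and *MYH14* were called in no line: their differences were −0.54, 0.74 and 1.07 in HT29 (adjusted p = 0.418, 0.223 and 0.0876, limma), 0.45, −0.46 and 0.02 in HCT116 (adjusted p = 0.0514, 0.124 and 0.944, limma) and 0.95, −0.49 and 0.07 in SW480 (adjusted p = 1.3e-06, 0.00388 and 0.785, limma). Of the paralogs and chaperone partners of *TTC9*, 9 or 10 were tested per line and 0 were called, beside the same shares of all genes tested. *TTC9C* had differences of 0.02, 0.31 and 0.26 in HT29, HCT116 and SW480 (adjusted p = 0.95, 0.104 and 0.0193, limma), and *TTC9B* was at group means of 3.99 to 15.8. At an unadjusted p under 0.05 limma found 0, 6 and 7 in the 3 lines, and edgeR and DESeq2 called 0 in each. Over all genes tested, limma found 2417 of 14921, 4553 of 15404 and 8905 of 16325 at that level.

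**Figure D4:**
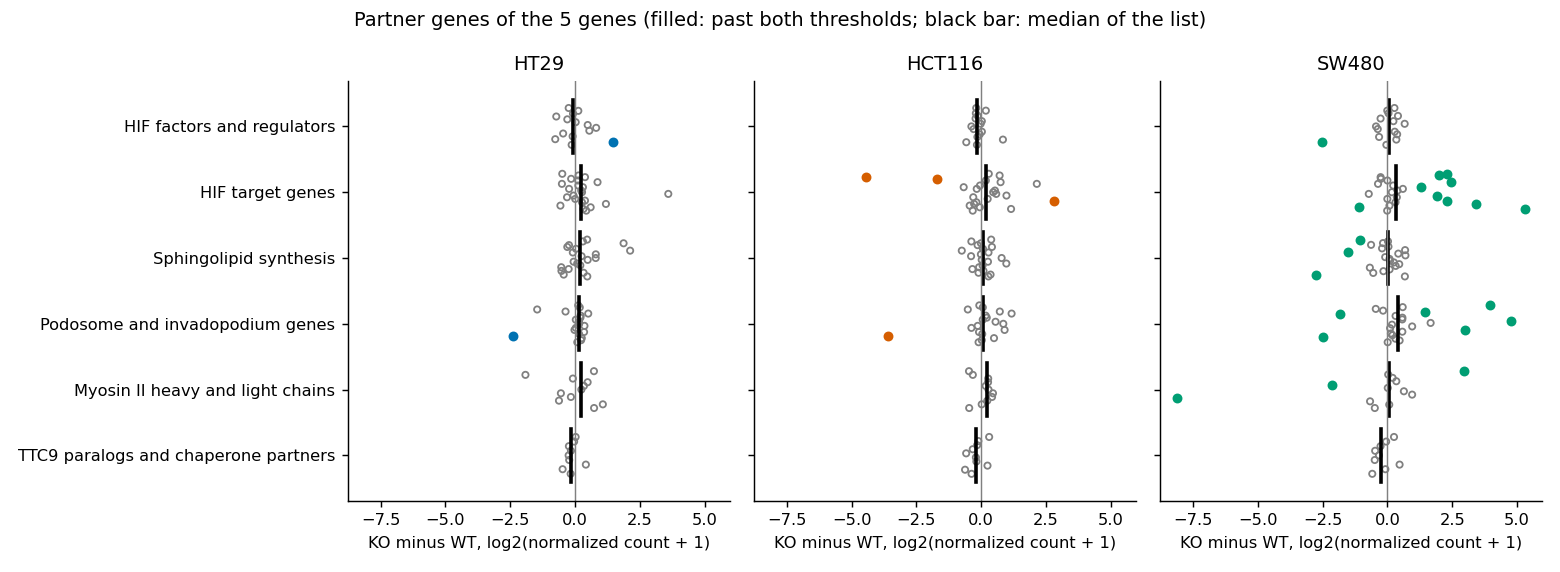
KO minus WT differences on the log2(normalized count + 1) scale for the genes of 6 fixed lists, with 1 point per gene tested, filled where the gene passed both thresholds, and a black bar at the median of the list. Filled points number 2 in HT29, 4 in HCT116 and 22 in SW480, among 97, 99 and 103 genes tested.

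The genes with the most similar profile over the 24 libraries were found by the root mean square difference of log2(normalized count + 1) after centering each gene, among 18608 genes. Small values mean alike, and the value holds differences between lines as well as between genotypes. For *EPAS1* these were *P2RX4* (0.69), *UGCG* (0.69) and *ZFHX3* (0.74), against a median of 1.58 over all genes. For *TTC9* they were *MITF* (1.05), *NPAS1* (1.14) and *SPIRE1* (1.20), with a median of 2.39. *MYH15* was nearest to *GEM* (0.79), the gene ENSG00000261392 (0.98) and *F3* (1.01), with a median of 2.22, and *SH3PXD2A* to *ATP2B4* (0.81), *FAM114A1* (0.90) and the gene ENSG00000260743 (0.91), with a median of 1.65. *SPTSSB* was nearest to *WNK2* (1.13), *MPZL2* (1.19) and *RAB11FIP4* (1.25), with a median of 2.22. The likeness did not always include the direction of the KO difference. *P2RX4*, with KO minus WT values of 1.11, 0.54 and −1.02 in HT29, HCT116 and SW480, had the signs of *EPAS1*, and *WNK2*, with 0.69, −1.09 and −2.51, had those of *SPTSSB*. *ATP2B4*, with 1.90, −0.12 and 1.64, had those of *SH3PXD2A*. *GEM* had 2.56, 0.20 and 2.55 and *MITF* had 5.01, 0.64 and 0.17, so that neither had the signs of its member in every line. Of the 3 nearest genes, 2 had the signs of the member in every line tested for *EPAS1*, *MYH15*, *SH3PXD2A* and *SPTSSB*, and 1 for *TTC9*. Among those counted, ENSG00000261392 was tested only in HCT116 (−0.23), and ENSG00000260743 was not tested in HT29. The likeness was computed from the libraries that the rule used, so shared signs are no separate evidence. Their share over all genes was not computed.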

How the data were processed

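RNA-seq was performed on 24 libraries from WT and *CTNNB1* KO cell clones of HT29, HCT116 and SW480, sequenced as paired ends from a TruSeq RNA v2 kit that does not keep the strand. Per the submitters' processing notes, the authors aligned reads with STAR (2.7.5b) to GRCh37, counted them per gene with featureCounts (2.0.1) and scaled them with DESeq2 (2.11.40.6). The deposited signal is thus a read count divided by the size factor of its library, called normalized count here, and dividing by the value of 1 read gave whole reads (within 0.01) for 100% of values. The series tables of the authors' mean signal, fold changes and p-values were not used. Low counts give wide intervals, and intervals and floors cover counting error only.

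KO and WT were compared per line with limma (3.58.1, trend and robust) on log2(normalized count + 1), which understates changes of low genes, over genes with at least 10 in at least 4 libraries of the line. Clones and lines were contrasted likewise, the latter over genes with at least 10 in 4 of 24 libraries. A call needed a Benjamini-Hochberg adjusted p under 0.05 and an absolute log2 fold change over 1. Libraries of a group are 2 clones in 2 rounds, so p-values count rounds as replicates. Named list genes were the 2 called genes with the largest change per list and line at a mean of at least 50, and closest paralogs. *ADAM19* in SW480 was added after its value was seen, since it was called in the other lines. The members and lists were chosen with earlier results of these data known. Alternatives used edgeR (4.0.16) with TMM and DESeq2 (1.42.0) on the recovered reads, other pseudocounts and filters, averaged rounds, single rounds, the round as a replicate block, and each library or clone left out. Pairing of rounds across clones was checked by correlating the round A minus round B differences of clones over genes. It held in HCT116 (6 of 6 clone pairs over 0.1, r 0.182 to 0.374) but not in HT29 (2 of 6) or SW480 (1 of 6). Scripts were tested on simulated data. The gene just outside the p threshold is not reported here. R (4.3.3) and Python (3.11.15) were used.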

Additional observations from a re-analysis of the deposited data

Results flagged for a closer look

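In 2 of the 30 groups of 4 libraries formed by the 5 genes, the 3 lines and both genotypes, the highest library stood apart by Dixon's ratio of gap to range, past its 95% critical value for 4 values, which chance exceeds in about 1 of 20 groups. *EPAS1* in HT29 KO 38A gave a ratio of 0.853, and *EPAS1* in HCT116 WT 6A gave 0.857. The fitted KO minus WT differences of each gene did not have the same sign in all 3 lines. They were 1.62, 1.46 and −2.33 in HT29, HCT116 and SW480 for *EPAS1*, and 4.88, 1.51 and −1.41 for *TTC9*. They were 2.28, −1.40 and 3.72 for *MYH15*, 3.96, −1.17 and 1.62 for *SH3PXD2A*, and 1.85, −1.61 and −4.69 for *SPTSSB*. The difference between lines was not tested, since the genes were chosen for it.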

How the results depend on the processing

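No value changed sign under any alternative. Of 328 alternative values of the members' KO minus WT differences, 316 moved by less than the spread between replicates and 12 moved by more; of 465 for the contrasts between lines, 463 stayed on the same side of the thresholds, and of 180 for the contrasts between clones, 175 did and 5 passed where the reported value had not. For *SPTSSB* in SW480, at the limit of depth, the difference was −5.77 with a pseudocount of 0.1 and −3.46 with 5, and SW480 minus HCT116 was −0.92 with 5. The genes called numbered 784 with DESeq2, 0 with averaged rounds, 217 with the replicate block and 212 with at least 10 in every library in HT29, 358 with averaged rounds in HCT116, and 1833 with at least 10 in every library in SW480. Members past both thresholds in all 3 lines numbered 0 with averaged rounds and 3 with at least 10 in every library, and 4 with the replicate block. *MYH15* in HT29 had an adjusted p of 0.0556 in edgeR. List genes called in HT29 numbered 6 with DESeq2 and 0 with averaged rounds, and neighbours called in HT29 and HCT116 numbered 0 with averaged rounds and with at least 10 in every library. The neighbour counts under these alternatives were added after the data were seen. Leaving out 1 library or clone gave 145 to 648 calls in HT29, 628 to 1180 in HCT116 and 2644 to 3110 in SW480. It gave 0 to 7, 3 to 7 and 21 to 24 list genes, 2 to 3 and 0 to 1 neighbours in HT29 and HCT116, and 2 to 5 members past both thresholds in all 3 lines. The ranges were 1.39 to 2.31 for *SPTSSB* in HT29, −1.85 to −0.94 for *MYH15* and −2.55 to −0.66 for *SPTSSB* in HCT116, and −2.70 to −1.96 for *EPAS1*, 1.19 to 2.04 for *SH3PXD2A* and −5.42 to −3.96 for *SPTSSB* in SW480. For *SH3PXD2A* between HCT116 and HT29 the range was 0.99 to 1.37. The causes were not tested.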
